A study of Ammopiptanthus mongolicus with 6 samples.

Results

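The leaf RNA of wild-type Ammopiptanthus mongolicus sampled 1 h into drought stress was compared with that of the untreated control of the same series. Both are mesophyll libraries, and they are 2 of 6 in the series. The other 4 are 2 later drought times (24 and 72 h) and 2 cold times (1 and 72 h). They appear below only as levels set beside the 1 h comparison. The 2 libraries were taken by treatment and time in the labels, and every assembled transcript (unigene) entered, so 63899 unigenes with a read in at least one of them were compared out of 67955 in the series. All 6 groups are wild type and each is 1 library. The labels do not state how drought was applied, how many plants a library holds or at what time of day the control was taken.

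Ammopiptanthus mongolicus is an evergreen broad-leaved legume shrub of the Central Asian desert. In plants in general, water loss raises the hormone abscisic acid, which closes stomata and switches on genes for protective proteins and compatible solutes, while photosynthesis and growth genes tend to be turned down. The first hours of a stress carry early signalling transcripts, many of them short-lived. The files give unigenes by assembly identifier and pair none with a gene name, and no genome was used, so no value below is assigned to a function and the mesophyll label could not be checked against marker genes. A name with Contig in it belongs to a cluster of related contigs, and other names are single unigenes.

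The drought 1 h library held 4305590 uniquely assigned reads on 59714 unigenes, and the control held 4673249 reads on 59618. The median listed unigene had 10 reads in each. The 100 most abundant unigenes of each library took 22.8% of the reads in drought 1 h and 24.9% in the control. The series' design text speaks of triplicates, and whether a library pools several samples is not stated. With 1 library a side, no difference below has been checked in a second sample and none carries a p-value. Ratios are reads over the library total, with an exact 95% interval (Clopper-Pearson) that covers counting error only, and levels are given as CPM, the reads scaled to a common library total, or, between unigenes of different length, as the deposited RPKM, which also divides by length.

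After 1 h of drought, 215 unigenes were higher than in the control and 105 were lower, taking those whose whole 95% interval lay beyond 2-fold. That is 0.336% and 0.164% of the 63899 unigenes, together 0.501%. The split depends on the scaling: with median-of-ratios factors, which move all log2 ratios by -0.10, it was 162 higher and 135 lower, so higher unigenes made up 54.5% of the called ones in place of 67.2%. With the same rule but reads summed over the contigs of a cluster, 181 higher and 89 lower were found. The interval excluded a ratio of 1, without any 2-fold requirement, at 6453 unigenes, or 10.1%.

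Most of these differences were moderate. With counts under 3 set to 3, the median fold was 4.65 among the higher unigenes (quartiles 3.47 and 5.79) and 3.99 among the lower ones (3.28 and 5.84). Of the higher unigenes 82 were under 4-fold, 114 were from 4 to 8-fold, 16 from 8 to 16-fold and 3 at least 16-fold. Of the lower ones 53 were under 4-fold, 44 from 4 to 8-fold, 6 from 8 to 16-fold and 2 at least 16-fold. The interval itself cleared 4-fold at 29 higher and 8 lower unigenes. The point sizes depend on depth, since a thinly read unigene can be called only with a large ratio. With 0.5 added to counts, the median log2 ratio was 2.44 over all 215 higher unigenes and -2.33 over all 105 lower ones. Among those with 100 or more reads in the pair it was 1.71 in the 87 higher and -1.75 in the 45 lower ones. The larger median size of the higher unigenes was thus not seen at that depth.

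**Figure D1:**
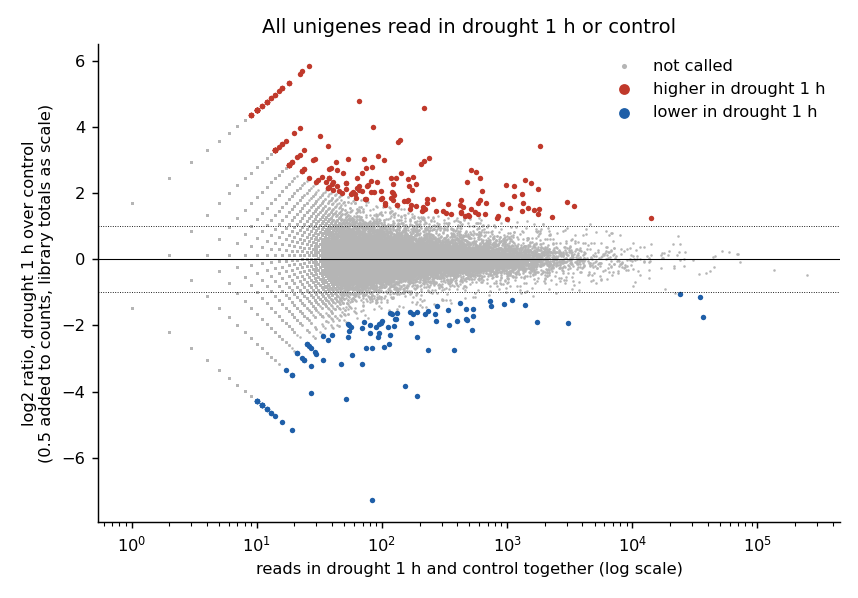
Each point is a unigene, placed by its reads in drought 1 h and control together (x, log scale) and by its log2 ratio of drought 1 h over control with 0.5 added to counts (y); dotted lines mark 2-fold. The 215 higher (red) and 105 lower (blue) unigenes lie on both sides of a band that narrows with the number of reads.

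How many unigenes could be called depended on their reads. Below 10 reads in the pair 23942 unigenes held 5 calls, all higher, although 53.8% of them had a point ratio beyond 2-fold (0.5 added to counts). From 10 to under 20 reads 0.530% were higher and 0.220% lower. From 100 to under 500 reads the shares were 0.586% and 0.354%, and from 1000 reads they were 1.31% and 0.511%, which is 18 and 7 of 1369 unigenes. In that best-measured class 60.1% of intervals excluded a ratio of 1, yet the 5th and 95th percentiles of the ratio were 0.701 and 1.58. Among abundant transcripts, small differences beyond counting error were therefore common and 2-fold ones were rare. The share of these small differences that plants of one group would also show was not tested.

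**Figure D2:**
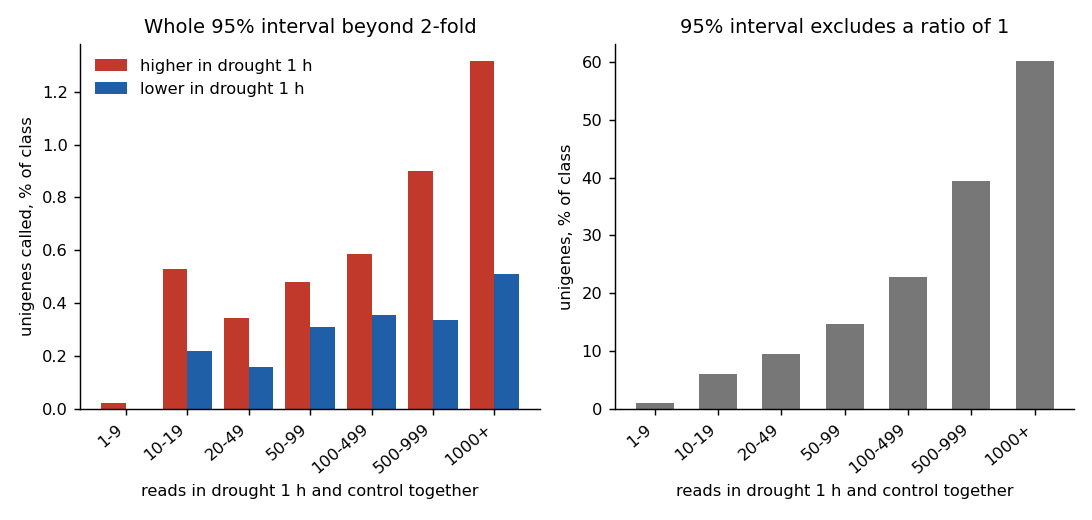
Left, the share of unigenes called higher (red) or lower (blue) in drought 1 h, in % of each class of reads in drought 1 h and control together; right, the share whose 95% interval excludes a ratio of 1. The right panel climbs from 1.03% in the class under 10 reads to 60.1% from 1000 reads, while called unigenes stay under 2% in every class.

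The higher unigenes were longer than the lower ones, with a median of 677 bases against 461, and 421 over all unigenes read in the pair. Calls of higher unigenes made up 0.144% of unigenes of 200 to under 300 bases and 0.574% of those of 1000 to under 2000 bases, but 0.371% of those of 2000 bases and more, whereas lower calls stayed between 0.133% and 0.181% in every length class. Longer unigenes also had more reads, with a median of 6 in the pair in the first of these classes, 132 in the second and 351 in the third. The deposited coverage, the percent of a unigene's length under reads, went the same way as the counts it is made from. Its median over the 215 higher unigenes was 82.1% in drought 1 h and 38.5% in the control, and over the 105 lower ones it was 48.5% in drought 1 h and 85.8% in the control. Coverage was higher in drought 1 h at 199 of the 215, and lower in drought 1 h at 97 of the 105.

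A number of unigenes were read in 1 of the 2 libraries only. The drought 1 h library had 4281 such unigenes and the control 4185, and these held 0.188% of the drought 1 h reads and 0.171% of the control reads. Most were at the edge of detection: 3845 of the drought 1 h ones and 3748 of the control ones had 3 reads or fewer, the number that a count of 0 allows. Of those read in drought 1 h only, 39 were called higher, which took at least 9 reads, and of those read in the control only, 20 were called lower, which took at least 10 reads. Only 3 of the 39 were also without a read in the 4 other libraries, and none of the 20 was.

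The unigenes with the firmest bounds stood far from the control in both directions. Unigene36437_All (776 bases) stood at 48.5 CPM in drought 1 h (95% Poisson interval 42.2 to 55.6) against 1.93 CPM in the control (0.881 to 3.66), a ratio of 25.2 (13.0 to 55.9). Its reads covered 83.9% of its length in drought 1 h and 30.1% in the control. It was also above all 4 other libraries, which lay between 0.665 CPM in cold 1 h and 9.07 CPM in drought 24 h.

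Unigene37259_All (761 bases) had 14.6 CPM in drought 1 h (11.2 to 18.7) and 0.428 CPM in the control (0.0518 to 1.55), and the ratio of 34.2 had 9.08 as its lower limit. It rests on 63 reads in drought 1 h against 2 in the control. Its coverage was 89.7% in drought 1 h and 12.9% in the control.

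On the lower side, Unigene21573_All (285 bases) had 0 CPM in drought 1 h (0 to 0.857) and 18.0 CPM in the control (14.3 to 22.3). With drought 1 h set to the floor of 3 counts, 0.697 CPM, and the control count taken as observed, it was 25.8-fold lower. The exact interval of the ratio begins at 20.5-fold lower. Unigene12559_All (418 bases) had 2.09 CPM in drought 1 h (0.956 to 3.97) and 38.7 CPM in the control (33.3 to 44.8), 18.5-fold lower (9.55 to 41.2). Reads still covered 72.0% of its length in drought 1 h, against 98.1% in the control.

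Of the called unigenes, 34 higher and 13 lower ones had 500 or more reads in the 2 libraries together. The firmest of the higher ones was Unigene35165_All (3231 bases), with 387 CPM in drought 1 h (368 to 406) and 36.4 CPM in the control (31.1 to 42.3), a ratio of 10.6 (9.07 to 12.5). Reads fell on only 27.9% of its length in drought 1 h and 27.6% in the control, so the added reads fell on hardly more of its length. Unigene1945_All (1484 bases) followed, with 102 CPM in drought 1 h (93.1 to 112) and 15.6 CPM in the control (12.2 to 19.6), a ratio of 6.56 (5.11 to 8.52). Unlike the preceding one it was read over most of its length, 95.3% in drought 1 h and 74.5% in the control.

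The firmest lower ones with that many reads were CL9602.Contig2_All and Unigene27842_All. CL9602.Contig2_All (2442 bases) had 138 CPM in drought 1 h (127 to 149) and 526 CPM in the control (506 to 547), 3.82-fold lower (3.49 to 4.19). It was covered over 92.7% of its length in drought 1 h and in the control. Unigene27842_All (924 bases) had 21.4 CPM in drought 1 h (17.2 to 26.2) and 93.5 CPM in the control (84.9 to 103), 4.38-fold lower (3.49 to 5.54), and 35.0% of its length was read in both.

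The called sets carried a small part of the reads. The 215 higher unigenes took 1.23% of the reads in drought 1 h (exact 95% binomial interval 1.22 to 1.24) and 0.376% in the control (0.371 to 0.382). The 105 lower ones took 0.692% in drought 1 h (0.684 to 0.699) and 1.85% in the control (1.83 to 1.86). Over all unigenes 10.7% of the reads lay on different unigenes in the 2 libraries, as the sum of all gains in share, counting noise included. The higher set made up 7.98% of those gains and the lower set 10.7% of the equal losses. The remainder lay on unigenes that were not called, whatever their ratio.

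Of the loss in the lower set, 78.0% came from 3 abundant contigs. CL1491.Contig1_All (2540 bases) stood at 1836 CPM in drought 1 h (1796 to 1877) and 6155 CPM in the control (6084 to 6227), 3.35-fold lower (3.27 to 3.44). CL4519.Contig3_All (834 bases) stood at 2358 CPM in drought 1 h (2312 to 2404) and 5204 CPM in the control (5139 to 5270), 2.21-fold lower (2.16 to 2.26). CL1268.Contig2_All (1537 bases) was 2.06-fold lower (2.01 to 2.12), with 1719 CPM in drought 1 h and 3548 CPM in the control. Per length these were among the most strongly expressed unigenes that were called, with 723, 2827 and 1119 RPKM in drought 1 h and 2423, 6240 and 2308 RPKM in the control, in the same order. Reads covered only 53.8% of the first and 47.7% of the second in drought 1 h, so their RPKM averages over bases without reads.

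No loss of that size had a counterpart among the higher unigenes. The largest gain was Unigene24088_All (1066 bases), with 2247 CPM in drought 1 h (2203 to 2292) and 940 CPM in the control (912 to 968), a ratio of 2.39 (2.31 to 2.48). Next came Unigene15170_All (855 bases), with 586 CPM in drought 1 h (563 to 609) and 193 CPM in the control (180 to 206), a ratio of 3.04 (2.82 to 3.28). In cold 1 h the first stood higher still, at 3654 CPM, and the second at 579 CPM (557 to 601), within counting error of its level in drought 1 h.

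The most abundant unigenes shifted mostly within 1.5-fold. Of the 100 with the most reads in the pair, 90 had a ratio within 1.5-fold, 45 had a ratio above 1 and 55 below, and 1 was called higher and 3 lower. The single most abundant, CL340.Contig2_All (5753 bases), held 2.29% of the reads in drought 1 h and 3.19% in the control, a ratio of 0.717 (0.712 to 0.723). It fell by 9014 CPM, the largest difference of any unigene, though its ratio stayed within 2-fold. Since shares of a library add up to a whole, such a loss raises every other share a little. With totals taken without the 100 most abundant unigenes, an alternative chosen after seeing the data, 191 unigenes were higher and 119 lower.

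The levels of the 2 called sets in the other 4 libraries were not used to choose them. The higher set took 1.14% of the reads in drought 24 h and 0.821% in drought 72 h, and 0.892% in cold 1 h and 1.29% in cold 72 h. All 4 lay above the control's 0.376%. The median CPM of its unigenes was 2.14 in the control, 12.3 in drought 1 h, 7.21 in drought 24 h, 6.25 in drought 72 h, 5.54 in cold 1 h and 6.28 in cold 72 h. In each comparison's own terms, against the shared control and with 0.5 added to counts, the median log2 ratio was 2.44 in drought 1 h, 1.79 in drought 24 h, 1.48 in drought 72 h, 1.22 in cold 1 h and 1.26 in cold 72 h. Over all unigenes read it was 0.10, 0.01, 0.01, 0.05 and -0.28 in the same order. The set was chosen against a control library that all 5 ratios share, so a control that was low by chance raises every one of them.

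The lower set held 0.415% of the reads in drought 24 h, 0.776% in drought 72 h, 0.868% in cold 1 h and 0.752% in cold 72 h, all under the control's 1.85%. Its 3 abundant contigs accounted for 0.591% of the reads in drought 1 h, 0.300% in drought 24 h and 0.634% in drought 72 h, against 1.49% in the control. The other 102 unigenes took 0.100% in drought 1 h, 0.114% in drought 24 h and 0.142% in drought 72 h, against 0.354% in the control. In cold they took 0.177% at 1 h and 0.426% at 72 h, and the 72 h share was above the control. In summed reads, the low share of the whole set in cold 72 h came from the 3 abundant contigs, which took 0.326% there. The median of the other 102 was nonetheless low in cold 72 h, at 3.14 CPM against 14.0 CPM in the control. Members that were above the control in cold 72 h include CL9602.Contig2_All (985 against 526 CPM) and Unigene32494_All (391 against 68.7 CPM). The median log2 ratio over all 105 was -2.33 in drought 1 h, -1.95 in drought 24 h, -1.57 in drought 72 h, -1.20 in cold 1 h and -1.50 in cold 72 h, and again all 5 share the control. The order of the drought times differed in the 45 with 100 or more reads in drought 1 h and control. Their median was -1.75 in drought 1 h, -2.19 in drought 24 h and -1.84 in drought 72 h, so it was lowest at 24 h. In cold it was -1.20 at 1 h and -1.42 at 72 h.

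**Figure D3:**
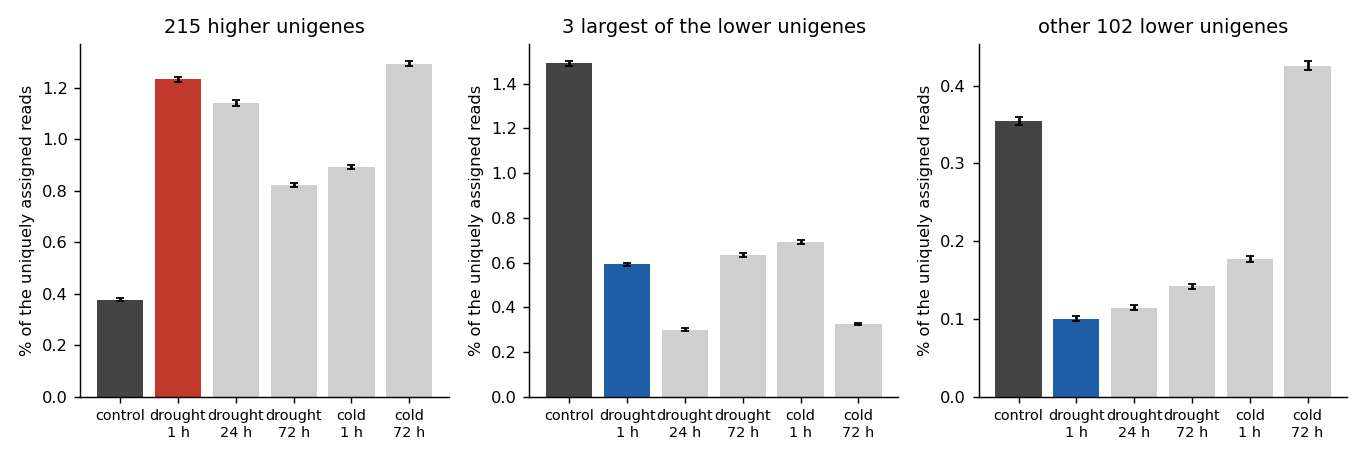
Bars give the percent of uniquely assigned reads in each of the 6 libraries that fell on the 215 higher unigenes (left), the 3 largest of the lower unigenes (middle) and the other 102 lower unigenes (right), with exact 95% binomial intervals. The control is dark and drought 1 h coloured; the right panel shows cold 72 h at 0.426%, above the control at 0.354%.

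Within drought, the level of many higher unigenes was greatest at 1 h. By CPM in the 3 drought libraries, 141 of the 215 had their highest level at 1 h, 53 at 24 h and 21 at 72 h. For the 87 that had 100 or more reads in drought 1 h and control, the numbers were 49, 29 and 9. Of these 87, the 95% interval of the ratio of drought 24 h over drought 1 h lay below 1 at 45 and above 1 at 20, which is 51.7% and 23.0%, against 18.3% and 13.5% of all 12188 unigenes with that many reads. For drought 72 h over drought 1 h it lay below 1 at 59 and above 1 at 6, against 16.8% and 12.8% of all. The 1 h library took part in choosing the set, and a set chosen for being high there is read lower elsewhere on average. The time of the highest level was not counted over all unigenes.

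Later levels of the well-read lower unigenes lay on both sides of the 1 h level. Over all 105, the lowest drought level was at 1 h in 54, at 24 h in 37 and at 72 h in 14. Of the 45 with at least 100 reads, 12 had their lowest drought level at 1 h, 22 at 24 h and 11 at 72 h. The interval of drought 24 h over drought 1 h lay below 1 at 19 of them and above 1 at 11. For drought 72 h it lay below 1 at 15 and above 1 at 16. For 24 h this is 42.2% below and 24.4% above, and for 72 h it is 33.3% and 35.6%, beside the shares over all 12188 unigenes given for the higher set. The 1 h library took part in choosing this set too, which favours a lowest level there. The time of the lowest level was not counted over all unigenes.

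A few unigenes set the drought 1 h library apart from every other, as was also so for other libraries. The drought 1 h library lay beyond 2-fold of each of the 5 other libraries, by the same interval rule, at 15 unigenes on the higher side (0.0221% of 67955) and 3 on the lower (0.00441%). By the same rule the control stood apart at 13 higher and 15 lower, drought 24 h at 20 and 2, and cold 72 h at 1118 and 558. Drought 72 h did so at 5 and 1, and cold 1 h at 2 and 0. Standing apart was thus not particular to drought 1 h, though drought 72 h and cold 1 h did so at fewer unigenes. Those on the higher side had from 10 to 2262 reads in drought 1 h, and 3 of them had no read in any other library. Unigene494_All (1159 bases) had the most reads, with 525 CPM in drought 1 h (504 to 547) and 159 CPM in the control (147 to 170), a ratio of 3.31 (3.05 to 3.60). It then stood at 61.6 CPM in drought 24 h and 58.2 CPM in drought 72 h, and at 58.7 and 48.8 CPM in cold at 1 and 72 h, so it was below the control in all 4.

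Unigene1148_All (1313 bases) ran alike, with 297 CPM in drought 1 h (281 to 314) and 60.1 CPM in the control (53.3 to 67.6), a ratio of 4.94 (4.34 to 5.64). At 24 h of drought it was at 59.5 CPM, level with the control within counting error, and at 72 h it was at 23.5 CPM. Both were read over nearly all of their length in drought 1 h, 99.8% for Unigene494_All and 94.5% for Unigene1148_All. Among the 3 without a read elsewhere, Unigene12564_All (622 bases), named after its values were seen, had the most, 23 reads over 81.0% of its length in drought 1 h. With the control set to the floor of 3 counts that is 8.32-fold higher, and the interval begins at 6.24.

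The 3 on the lower side were Unigene27842_All, Unigene32494_All and CL566.Contig1_All. Unigene27842_All, at 21.4 CPM in drought 1 h, had 77.4 CPM in drought 24 h, 79.7 CPM in drought 72 h and 93.5 CPM in the control, and was at 73.6 and 65.1 CPM in cold at 1 and 72 h. It was thus low in the drought 1 h library and between 65.1 and 93.5 CPM in the 5 others. Unigene32494_All (1689 bases) had 18.6 CPM in drought 1 h (14.7 to 23.1) and 68.7 CPM in the control (61.4 to 76.6), 3.70-fold lower (2.88 to 4.78). It stood at 56.5 CPM in drought 24 h and 64.2 CPM in drought 72 h, and at 71.8 and 391 CPM in cold at 1 and 72 h. CL566.Contig1_All (791 bases) had no read in drought 1 h and 10 in the control. With drought 1 h set to the floor that is 3.07-fold lower, and the interval begins at 2.07-fold lower. It had 30 to 55 reads in the other 4 libraries.

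Other differences were there at 1 h and also later. Unigene9703_All, Unigene4152_All, Unigene55273_All and Unigene21573_All were picked for firm bounds against the control at 24 and 72 h of drought. Their later differences from the control were therefore given in advance. Unigene9703_All (868 bases) had 206 CPM in drought 1 h (193 to 220) and 55.2 CPM in the control (48.7 to 62.4), a ratio of 3.73 (3.25 to 4.30). It reached 640 CPM at 24 h and 559 CPM at 72 h of drought. Cold gave 275 CPM at 1 h and 558 CPM at 72 h, so its gain was not particular to drought. Unigene4152_All (490 bases) had 19.3 CPM in drought 1 h (15.4 to 23.9) and 2.14 CPM in the control (1.03 to 3.94), a ratio of 9.01 (4.66 to 19.5). It stood at 36.7 CPM in drought 24 h and 25.2 CPM in drought 72 h, the second within counting error of its 1 h level. In cold it was at 10.6 CPM at 1 h and 113 CPM at 72 h.

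On the lower side, Unigene55273_All (741 bases) had 1.86 CPM in drought 1 h (0.802 to 3.66) and 9.84 CPM in the control (7.21 to 13.1), 5.30-fold lower (2.48 to 13.0). It then had no read in drought at 24 and 72 h, 3 reads in cold 1 h and none in cold 72 h. Unigene21573_All had no read in any drought library. CL1491.Contig1_All also went lower, to 432 CPM in drought 24 h, and stood at 1640 CPM in drought 72 h, near its 1 h level of 1836 CPM.

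**Figure D4:**
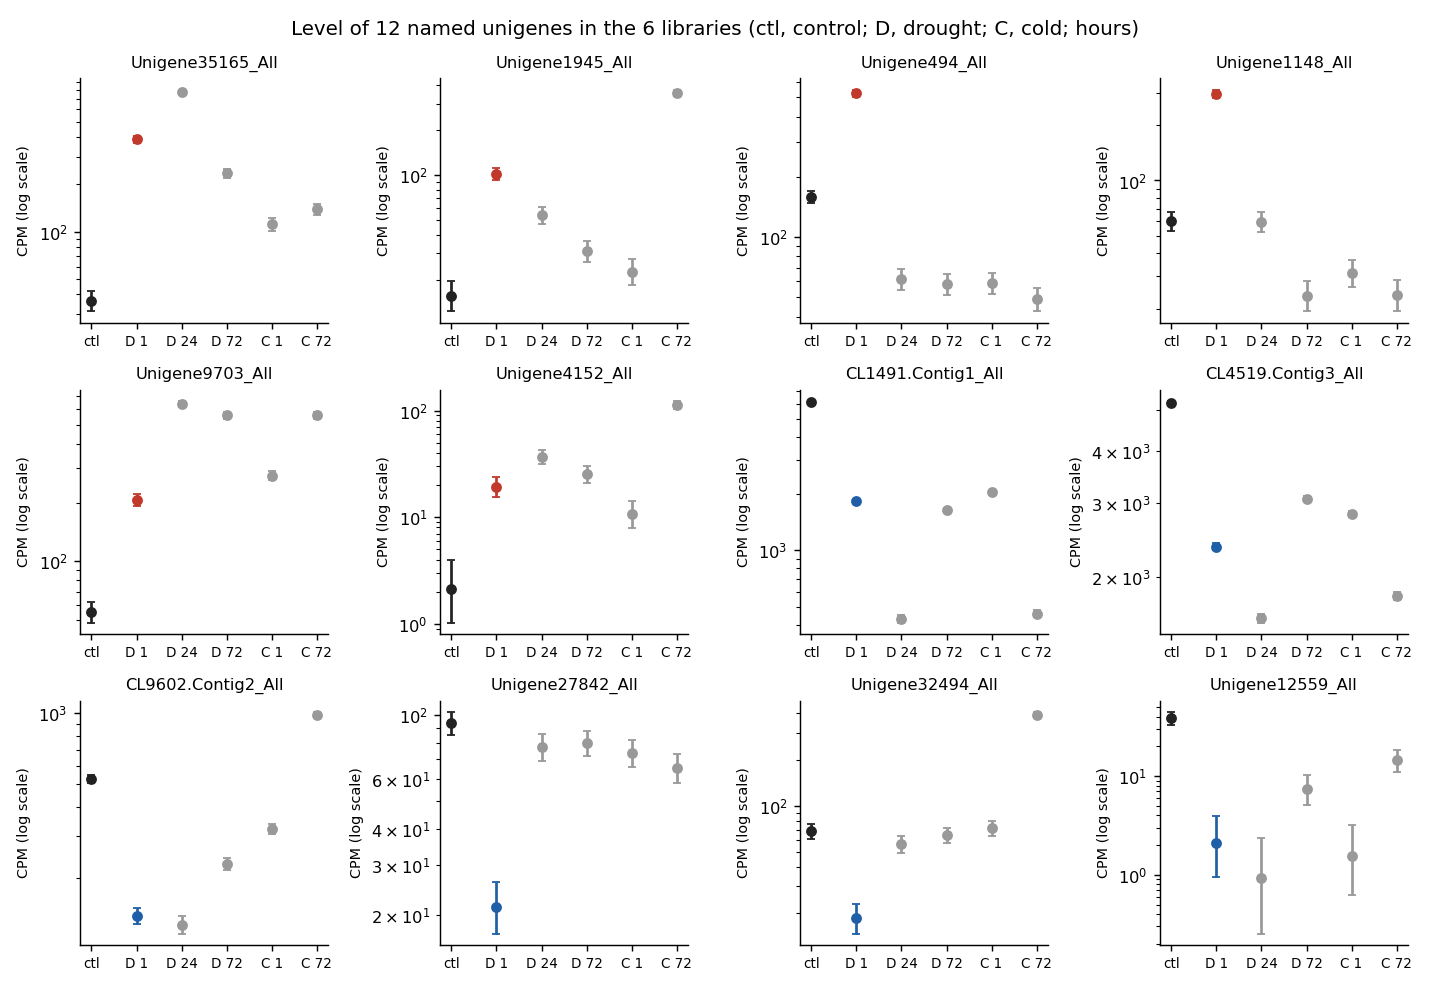
Levels of 12 named unigenes in CPM (log scale, one scale per panel) in the control (ctl), drought (D) and cold (C) libraries with the time in hours; bars are exact 95% Poisson intervals and cover counting error only. Drought 1 h is red where it is higher than the control and blue where it is lower; Unigene494_All and Unigene1148_All peak there, while Unigene9703_All goes on to 640 CPM at 24 h.

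Unique assignment divides reads among similar contigs, so contig differences were set beside the rest of their cluster. Of the called unigenes 71 higher and 36 lower were contigs, in 67 and 32 clusters. No cluster had contigs called in opposite directions, so there was no such pair to name. Summed over the cluster, the call held for the cluster of 36 of the 71 higher contigs and of 21 of the 36 lower ones. That sum includes the called contig. For 6 higher and 4 lower contigs no other contig of the cluster had a read, so the call could not fail. The other contigs, summed without the called one, were themselves called in the same direction for 6 higher and 6 lower contigs. The other contigs of the cluster held at least 20 reads in the pair for 44 higher and 23 lower contigs. Their ratio had a median of 1.37 beside the higher contigs and 0.659 beside the lower ones.

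For the higher contigs, the interval of the rest lay above 1 at 22, below 1 at 1 and held 1 at 21 of the 44. The 44 included 10 contigs with no control read, and at 9 of these 10 the rest held 1, so these contigs were read in drought 1 h alone of the pair while the rest of the cluster did not differ beyond counting error. For the lower contigs, the rest lay below 1 at 15, above 1 at 7 and held 1 at 1 of the 23. The 7 rests above 1 held from 219 to 1345 reads in the pair. Of all unigenes with 100 to under 500 reads, 22.8% had an interval that excluded 1. With 500 to under 1000 reads it was 39.4%, and from 1000 reads 60.1%. An interval off 1 was thus common at such depth. The counts of rests, higher or lower, were not compared with unigenes of like depth. Rests were counted per called contig, so a cluster with several called contigs enters more than once. Among rests on the called side this holds for CL6046 with 4 higher contigs and CL2175 with 2. On the lower side it holds for CL1878, CL6563 and CL8466 with 2 contigs each. In these clusters the rest includes other called contigs. The 7 lower contigs whose rest lay above 1 belong to 6 clusters. In CL4390 and CL9094, with 2 contigs read, the rest is a single contig. In the other clusters it is a sum. For each called contig of CL2614 that sum includes the other called contig, which was also lower. The contigs of these clusters that were not called were not looked at singly.

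CL6046 is a case of contigs moving as one, named after its values were seen. All 4 of its contigs were called higher, with 391, 69, 13 and 91 reads in drought 1 h and 83, 18, 1 and 12 reads in the control, in contig order. The cluster stood at 131 CPM in drought 1 h and 24.4 CPM in the control, a ratio of 5.37 (4.38 to 6.63). In drought it was at 347 CPM at 24 h and 69.8 CPM at 72 h. CL6563 did the same downward, with both contigs called lower and the cluster at 89.9 CPM in drought 1 h and 243 CPM in the control, 2.71-fold lower (2.41 to 3.05).

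CL2614 and CL4390, also named after their values were seen, moved within the cluster. In CL2614, CL2614.Contig3_All had 9 reads in drought 1 h and 145 in the control, 14.8-fold lower (7.61 to 33.1). CL2614.Contig1_All had 2 reads in drought 1 h and 50 in the control, 23.0-fold lower as observed (6.05 to 195), and it counts as under 16-fold in the sizes given above, where counts under 3 were set to 3. The cluster itself was at 167 CPM in drought 1 h and 145 CPM in the control, a ratio of 1.15 (1.03 to 1.28). CL2614.Contig3_All made up 1.25% of the cluster's reads in drought 1 h and 21.4% in the control. In CL4390, CL4390.Contig2_All made up 9.09% of the cluster in drought 1 h and 45.5% in the control, while the cluster stood at 74.1 CPM in drought 1 h and 76.2 CPM in the control, a ratio of 0.973 (0.834 to 1.13). Whether such shifts are splice forms, alleles of the plants sampled or assignment between near-identical sequences was not tested.

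**Figure D5:**
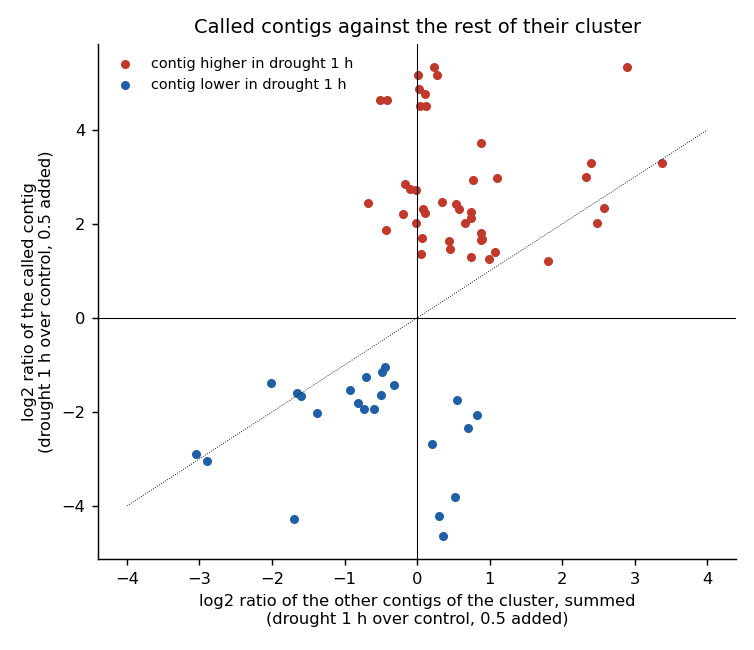
Each point is a called contig whose cluster has at least 20 reads on its other contigs in drought 1 h and control; x is the log2 ratio of those other contigs summed and y that of the contig (drought 1 h over control, 0.5 added), and the dotted line marks equal ratios. Of the lower contigs (blue), 7 lie right of 0, where the rest of the cluster was higher in drought 1 h.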

How the data were processed

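The authors deposited 1 table per library, per the file headers, holding each unigene's unique read count, the percent of its length covered and its RPKM. The submitters' processing notes name Bowtie 0.12.2. Its role, the assembler and the use of strand are not stated there. Counts sum to the header total, and the deposited RPKM equals count per kilobase over that total. Unlisted unigenes were given 0 reads.

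Ratios are counts over header totals with the exact conditional Clopper-Pearson 95% interval (scipy 1.17.1). A unigene was called when the interval lay above 2 or below 0.5. This is a rule of size for 2 libraries, not a test. Intervals and the floor of 3 counts cover counting error only, and they take each read as a separate molecule. PCR copies cannot be told from separate molecules, and any such copies would make the intervals too narrow. Poisson and binomial intervals are exact. The computation was tested on simulated data.

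At most 2 higher and 2 lower unigenes were named for each question: firmest bound, largest difference in CPM, firmest bound with at least 500 reads, apart from all other libraries with the most reads, and firmest later bound in drought against the control. Outside that limit, chosen after their values were seen, 1 more lower unigene is named for the largest differences in CPM and 1 more for those apart, and the most abundant unigene is named. Unigene12564_All, Unigene25308_All, Unigene25309_All and the contigs named only with their clusters were also added in this way. The members, lists and rules were chosen with earlier results of these data known. Scaling alternatives used edgeR 4.0.16 and DESeq2 1.42.0 on the 2 libraries under R 4.3.3. Other steps ran in Python 3.11.15 with pandas 2.3.3, numpy 2.4.6 and, for plots, matplotlib 3.10.9.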

Additional observations from a re-analysis of the deposited data

Results flagged for a closer look

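Leaving out contigs named only with their clusters, 4 named unigenes were called in one direction in drought 1 h and in the opposite direction in another library. Each call was against the same control. With 1 library per group these differences were not tested. Unigene494_All, with a ratio of 3.31 in drought 1 h, had ratios to the control of 0.389 in drought 24 h, 0.367 in drought 72 h, 0.370 in cold 1 h and 0.308 in cold 72 h. Unigene1148_All, with a ratio of 4.94 in drought 1 h, had 0.391 in drought 72 h and 0.394 in cold 72 h. Unigene32494_All, with a ratio of 0.271 in drought 1 h, had 5.69 in cold 72 h. CL566.Contig1_All, with no read in drought 1 h and 10 in the control, had ratios of 5.98 in drought 24 h, 4.13 in drought 72 h and 4.14 in cold 1 h.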

How the results depend on the processing

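The counts of 215 higher and 105 lower unigenes stayed within 1.5 times under TMM (196 and 119), upper-quartile (204 and 119) and median-of-ratios scaling (162 and 135), with at least 10 reads in the pair (210 and 105), with reads summed per cluster (181 and 89) and with totals without the 100 most abundant unigenes (191 and 119). They were 71 and 34 at a stricter confidence level of the interval, 29 and 8 when it had to clear 4-fold, and 135 and 47 among unigenes of at least 500 bases. Adding to the counting error an assumed plant-to-plant coefficient of variation of 0.2 gave 70 and 32, and one of 0.4 gave 21 and 9. Looser rules gave 1610 and 1044 when the interval only had to exclude 1 and the ratio to reach 2, and 2099 and 1634 when RPKM + 1 had to differ 2-fold in unigenes reaching 5 RPKM. Stricter and looser bounds change the counts by construction. Higher unigenes outnumbered lower ones under every one of these settings, and their share of the called unigenes was smallest with median-of-ratios scaling, at 54.5%.

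Of the named unigenes that were called, 23 were set out under the 3 scaling alternatives, and contigs named only with their clusters were not. Each alternative moves all log2 ratios by the same amount, -0.030 for TMM, -0.028 for upper-quartile and -0.10 for median-of-ratios scaling. Called intervals lie beyond 2-fold, so all 23 kept their direction by construction. Of 69 ratios, 65 stayed inside the counting interval, which is narrower for unigenes with more reads. The other 4 were abundant unigenes under median-of-ratios scaling, with ratios of 2.23 for Unigene24088_All, 0.278 for CL1491.Contig1_All, 0.422 for CL4519.Contig3_All and 0.452 for CL1268.Contig2_All. No paired analysis was possible because each group holds 1 library, and for the same reason no replicate could be left out. Depth limits the calls: a unigene with no control read needed at least 9 reads in drought 1 h.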

Other observations

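Unigene25308_All (758 bases) and Unigene25309_All (373 bases), named after their values were seen, carry neighbouring identifiers and had nearly the same counts in most libraries. They had 123 and 129 reads in drought 1 h and 11 each in the control, ratios of 12.1 (6.55 to 24.9) and 12.7 (6.88 to 26.1). In the other libraries they had 15 and 13 reads in drought 24 h, 31 and 26 in drought 72 h, 14 each in cold 1 h, and 24 and 37 in cold 72 h. Both are among the 15 unigenes at which drought 1 h was higher than all 5 other libraries. Whether they are parts of one transcript was not tested, and if they are, the count of 15 holds one transcript more than once.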
